A study of Sus scrofa with 2 samples.

Results

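The 6 genes described here, of 31908 in the matrices, stood out in the acinar nuclei of a transgenic pig pancreas: COL11A2, TNNT1, MPPED1, GSDMD, PCBP3 and TNFAIP8. They were chosen because the share of acinar nuclei with a transcript of each gene was far higher in the transgenic than in the wild-type library, so their acinar contrast is a description and carries no test. The question addressed was whether the same difference was found in the other cell classes of the pancreas.

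Nuclei came from the pancreas of 1 wild-type Bama pig (WT) and 1 transgenic Bama pig (PIGinH11) that carried knock-in copies of GIPRdn, hIAPP and PNPLA3I148M, driven by promoters specific to the beta cell or the liver. Both pigs were 18 months old, had eaten a control diet for the first 6 months and then a high-fat, high-sucrose diet for 12 months. Single-nucleus RNA-seq gave 1 library per group, so a difference between genotypes cannot be told apart from a difference between 2 animals, tissue pieces or libraries, and every 95% interval below covers counting error only.

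Acinar cells make and secrete the digestive enzymes of the pancreas, and ductal cells carry the juice away. COL11A2 encodes a chain of type XI collagen, a fibrillar collagen best known from cartilage. TNNT1 encodes the troponin T of slow skeletal muscle fibres. MPPED1 encodes a metallophosphoesterase domain protein known from brain. PCBP3 belongs to the poly(C)-binding proteins, which bind RNA. GSDMD encodes gasdermin D, whose cleaved form opens pores in the membrane during pyroptosis. TNFAIP8 encodes a TNF-induced protein that is linked to cell survival and is well expressed in lymphoid tissue. None of the 6 is a digestive enzyme or a classical acinar marker.

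In the Sscrofa11.1 build, the RefSeq annotation places COL11A2 (ENSSSCG00000001473) on chromosome 7 at 25204496 to 25234880, and TNNT1 (ENSSSCG00000025353) on chromosome 6 at 59351445 to 59365584. MPPED1 (ENSSSCG00000038685) lies on chromosome 5 at 5417939 to 5496494, and GSDMD (ENSSSCG00000006955) lies on chromosome 4 at 995753 to 1001964. PCBP3 (ENSSSCG00000023041), named from its gene ID because the matrices give it no symbol, lies on chromosome 13 at 208060949 to 208259368. TNFAIP8 (ENSSSCG00000040617) lies on chromosome 2 at 123152349 to 123285154. The genes therefore sit on 6 different chromosomes and span 6.21 kb (GSDMD) to 198 kb (PCBP3). The PCBP3 span overlaps the lncRNA LOC106508047, and reads of the pair could not be separated here.

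The libraries held 13619 (WT) and 14964 (PIGinH11) barcodes, of which 11854 and 13126 were retained. The WT library was deeper, with 55784067 against 26228811 UMIs (unique molecular identifiers, each marking 1 captured transcript). Clustering gave 22 clusters, and 21 of them were named from marker genes as 9 classes. Acinar-like nuclei numbered 8441 in WT (median 2848 UMIs) and 9122 in PIGinH11 (median 1198 UMIs), spread over 7 clusters, and all 11 acinar markers were detected there. The summed level of those markers was 25917 CPM (counts per 1000000 UMIs) in WT and 23602 CPM in PIGinH11. The libraries shared 46 retained barcodes.

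COL11A2 differed most. Its transcripts were found in 0.130% of WT acinar-like nuclei (interval 0.0651 to 0.233) and in 37.3% of PIGinH11 acinar-like nuclei (36.3 to 38.3). The 11 UMIs of WT made 0.364 CPM and the 5583 UMIs of PIGinH11 made 358 CPM, a 984-fold difference (550 to 1973). Every WT nucleus with COL11A2 held a single UMI, whereas positive PIGinH11 nuclei held 1.64 on average and up to 10. This collagen gene ranked 1 of 19149 genes by log2 ratio, and 1 of all 31908 genes by the gain in the share of nuclei.

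TNNT1 had 16 UMIs in WT and 591 in PIGinH11 acinar-like nuclei, which is 0.529 and 37.9 CPM, or 71.6-fold (43.7 to 126). The troponin transcript was seen in 0.190% and 5.53% of nuclei. MPPED1 had 23 and 702 UMIs, 0.761 and 45.0 CPM, or 59.2-fold (39.1 to 94.0). It was seen in 0.249% and 6.82% of nuclei. Both genes were thus close to absent from the WT acinar-like class, and far below COL11A2 in PIGinH11.

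GSDMD had 28 and 713 UMIs, 0.926 and 45.7 CPM, or 49.4-fold (33.9 to 74.8), and was seen in 0.320% and 6.95% of nuclei. PCBP3 had 49 and 940 UMIs, 1.62 and 60.3 CPM, or 37.2-fold (27.9 to 50.6), and was seen in 0.569% and 8.12% of nuclei. TNFAIP8 had the highest WT level of the 6, with 418 and 3060 UMIs, 13.8 and 196 CPM, or 14.2-fold (12.8 to 15.8), and was seen in 3.60% and 19.0% of nuclei.

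All 6 genes were at least 4-fold higher in PIGinH11 acinar-like nuclei, where 3.21% of 19149 genes with 20 or more UMIs passed the same limit. Since the genes were chosen on this contrast, nothing is read from that count. Under a limit of 1300 UMIs per nucleus, which left 3 WT UMIs of TNNT1 and 6 of GSDMD, the log2 ratios were 4.21 in place of 6.16 for TNNT1, 3.87 in place of 5.63 for GSDMD and 2.66 in place of 3.83 for TNFAIP8. MPPED1 stood at 7.67 in place of 5.89 after thinning to 500 UMIs, where 1 WT UMI was left. The median log2 ratio of the 6 was 5.76, against 0.29 over all genes tested. The rule had no numerical threshold. Among the 13210 named genes ranked, the members held ranks 1, 3, 5, 6, 7 and 16. The chymotrypsin-like protease gene CTRL held rank 2 (9 and 1046 UMIs) and C1QTNF3 held rank 4 (2 and 63 UMIs).

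The PIGinH11 nuclei were shallower, which lowers rather than raises their detection. When each nucleus was thinned to 500 UMIs, which left out no nucleus, COL11A2 was detected in 0.0118% of WT and 17.4% of PIGinH11 acinar-like nuclei. The thinned shares were 0.0474% and 1.83% for TNNT1, 0.0118% and 2.36% for MPPED1, and 0.118% and 2.59% for GSDMD. They were 0.118% and 2.97% for PCBP3, and 0.794% and 7.94% for TNFAIP8. The plot of acinar detection shows both sets of shares.

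**Figure D1:**
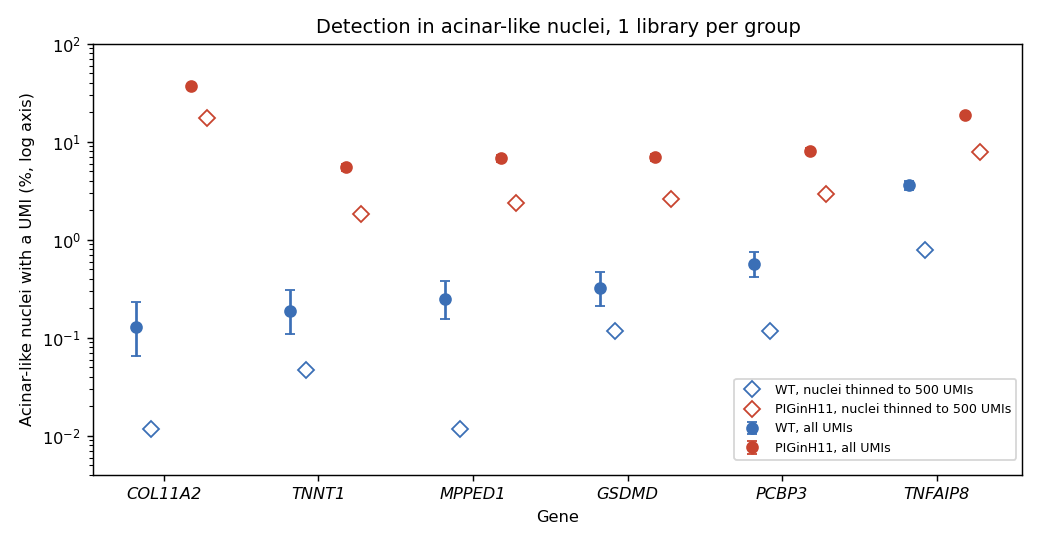
Share of acinar-like nuclei with at least 1 UMI of each gene (vertical axis, percent, log scale) in the WT and PIGinH11 libraries. Filled circles use all UMIs with exact 95% intervals, open diamonds use nuclei thinned to 500 UMIs. Each PIGinH11 share lies above the WT share of its gene, from 37.3% against 0.130% for COL11A2 to 19.0% against 3.60% for TNFAIP8.

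The difference was not carried by a few deep nuclei. Among acinar-like nuclei with 1000 to 2000 UMIs, COL11A2 was found in 0 of 2057 WT nuclei, which allows a share of up to 0.146% (3 counts of that total), and in 38.2% of 3177 PIGinH11 nuclei. In that range TNFAIP8 was found in 2.14% and 18.2%, PCBP3 in 0.632% and 8.15%, and GSDMD in 0.292% and 6.99%. Within PIGinH11, the COL11A2 level was 514 CPM in nuclei under 1000 UMIs and 225 CPM in nuclei of 4000 to 13000 UMIs. TNFAIP8 went the other way, from 161 to 216 CPM. TNNT1 stayed between 36.5 and 39.5 CPM over the 4 depth ranges.

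Each of the 7 acinar-like clusters held the difference. COL11A2 ranged from 265 to 540 CPM across the PIGinH11 clusters, while the WT clusters held 0 to 6 UMIs each. The share of PIGinH11 nuclei with COL11A2 ran from 25.4% in cluster 4 (median 756 UMIs) to 55.7% in cluster 6 (median 3616 UMIs). TNFAIP8 ranged from 125 to 254 CPM in PIGinH11 and from 7.27 to 23.3 CPM in WT, and was highest in cluster 6 in both libraries. GSDMD was lowest in that same cluster in PIGinH11, at 29.0 CPM, and highest in cluster 8, at 61.5 CPM.

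**Figure D2:**
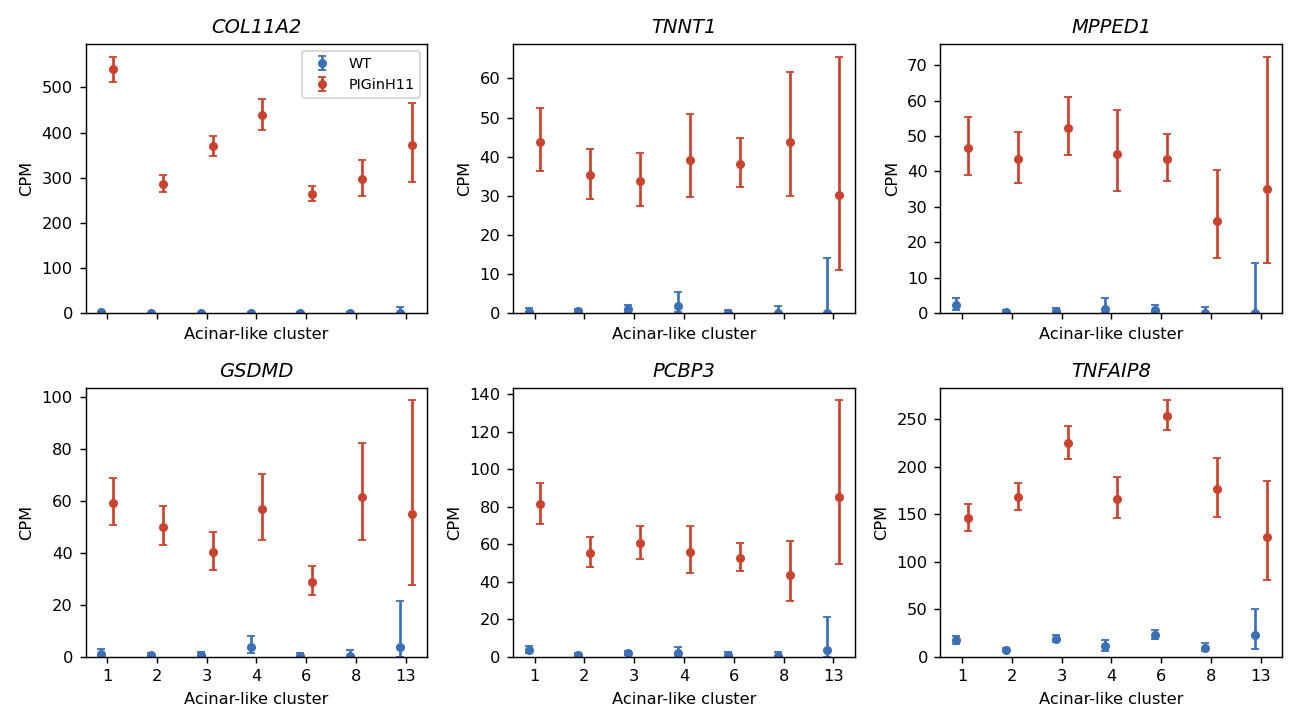
Level of each gene (CPM, linear axis from 0) in the 7 acinar-like clusters, with WT and PIGinH11 side by side and exact 95% intervals. PIGinH11 is above WT in every cluster, and the spread among PIGinH11 clusters is about 2-fold for COL11A2 (265 to 540 CPM) and TNFAIP8 (125 to 254 CPM).

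At least 1 of the 6 transcripts was found in 5.02% of WT and 58.2% of PIGinH11 acinar-like nuclei, and at least 2 in 0.0355% and 20.3%. No nucleus held all 6. Over all PIGinH11 acinar-like nuclei, each gene was found more often where another was found, in 30 of 30 ordered pairs, but deeper nuclei show more of every gene. The intervals with and without the other gene overlapped in 12 of 30 ordered pairs over all depths. Within 1000 to 2000 UMIs they overlapped in 30 of 30, and the share was higher with the other gene in 20 of 30. TNNT1, for example, was found in 5.27% of the nuclei with COL11A2 (4.08 to 6.68) and 4.03% of those without (3.20 to 4.99). A separate group of nuclei that held the genes together was not seen in this range. Counts as low as 9 nuclei, for TNNT1 with MPPED1, could not show a modest excess, so nothing further is read from the overlap.

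The next comparison asked whether the difference was acinar only. In ductal-like nuclei (2151 in WT, 2198 in PIGinH11), COL11A2 had 1 and 116 UMIs, 0.116 and 34.9 CPM, a ratio of 300 (52.8 to 11953). It was found in 0.0465% and 4.73% of these nuclei. TNNT1 had 2 and 30 UMIs, MPPED1 5 and 22, GSDMD 4 and 15, PCBP3 12 and 30, and TNFAIP8 49 and 85. All 6 therefore had a higher CPM in PIGinH11 ductal-like nuclei, with log2 ratios from 2.17 (TNFAIP8) to 8.23 (COL11A2).

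GSDMD had under 20 ductal UMIs, and the other 5 members were at least 4-fold higher, where 5.42% of 14943 genes tested were. COL11A2, TNNT1, MPPED1 and PCBP3 reached 20 UMIs only through PIGinH11, so nothing is read from that count. Without doublet removal, COL11A2 had 1 and 386 ductal UMIs. Here and below, each excess of the acinar log2 ratio over that of another class holds the acinar ratio on which the genes were chosen. That choice favours a positive excess, so the excesses are descriptions. The acinar log2 ratio exceeded the ductal one by 2.38 for MPPED1 (0.49 to 3.98), 2.35 for GSDMD (0.20 to 4.12), 2.52 for PCBP3 (1.33 to 3.63) and 1.66 for TNFAIP8 (1.10 to 2.21). For COL11A2 the excess was 1.71 (-3.73 to 4.52) and for TNNT1 0.88 (-2.35 to 3.08). The WT ductal counts of 1 and 2 UMIs left these last 2 excesses undetermined. The size of the TNFAIP8 excess depended on the processing. Over 13 alternatives it ran from 0.20, under a limit of 1300 UMIs, to 4.41, with the acinar-marker rate described below subtracted. Both ends lay outside the interval of 1.10 to 2.21, so the size of the TNFAIP8 excess was not settled either.

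Transcripts that leak from acinar cells can be captured with nuclei of any class, so the ductal counts were set beside those of the 11 acinar markers. In PIGinH11, ductal-like nuclei held the acinar markers at 10.1% of the acinar level per nucleus in sum (4.80% to 91.3% for single markers, median 6.76%). The same figure was 8.62% for COL11A2, 8.73% for GSDMD, 11.5% for TNFAIP8, 13.01% for MPPED1, 13.2% for PCBP3 and 21.1% for TNNT1. COL11A2 thus had 116 ductal UMIs where the marker rate gives 136, a ratio of 0.853 (0.705 to 1.02). TNNT1 had 30 UMIs against 14.4, a ratio of 2.08 (1.41 to 2.97). At this summed rate it was the one member whose interval excluded 1 in PIGinH11 ductal-like nuclei. In WT ductal-like nuclei the ratio was 10.8 for MPPED1 (3.51 to 25.2), 7.10 for GSDMD (1.93 to 18.2) and 12.2 for PCBP3 (6.29 to 21.2). It was 5.82 for TNFAIP8 there (4.31 to 7.70). The WT intervals of COL11A2 (0.114 to 25.2) and TNNT1 (0.752 to 22.4) held 1. These intervals cover the member counts only, and the rate depends on how the markers are combined. In PIGinH11 every member stood above the median marker at 6.76%. With the marker rate subtracted, the ductal log2 ratio of TNFAIP8 was -0.59, and no other member kept 20 UMIs. TNNT1 was then left with 1.68 UMIs in WT and 15.6 in PIGinH11, at least a log2 ratio of 3.75. Whether leaked RNA made the ductal counts was not tested.

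**Figure D3:**
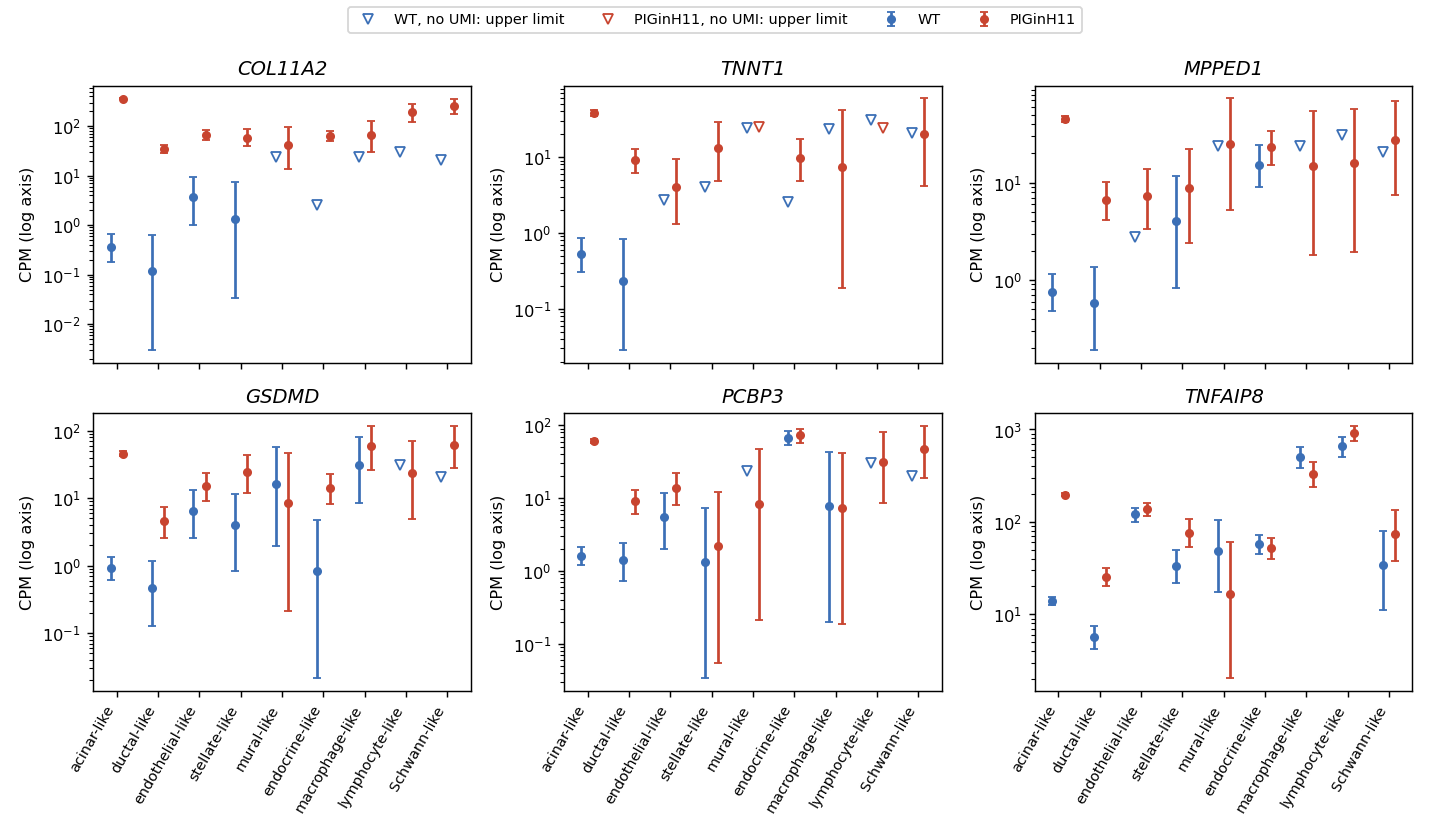
Level of each gene (CPM, log axis) in 9 classes of nuclei, WT and PIGinH11 side by side, with exact 95% intervals. Open triangles mark classes with no UMI at the limit that 3 UMIs allow. The libraries stand far apart in acinar-like nuclei for all genes, and close together for PCBP3 in endocrine-like nuclei (67.7 and 72.8 CPM) and TNFAIP8 in endothelial-like nuclei (120 and 136 CPM).

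COL11A2 also had more UMIs in the remaining PIGinH11 classes. Endothelial-like nuclei (278 and 534) had 4 and 82 UMIs, 3.65 and 66.2 CPM, and stellate-like nuclei (198 and 246) had 1 and 27 UMIs, 1.33 and 59.1 CPM. Endocrine-like nuclei (282 and 520) had 0 and 72 UMIs, at least 25.2-fold higher with WT set at its floor of 3 UMIs. Lymphocyte-like nuclei had 0 and 24, Schwann-like nuclei 0 and 37, macrophage-like nuclei 0 and 9 and mural-like nuclei 0 and 5 UMIs. The mural-like count left the direction unsettled, since the lower limit of its log2 ratio was -0.06. With the marker rate subtracted, endothelial-like nuclei kept 3.96 UMIs in WT and 4.89 in PIGinH11, a log2 ratio of 0.13.

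In PIGinH11, the COL11A2 level in these classes stayed below the acinar level. It was near the summed acinar-marker rate in some classes and not in others. Relative to the marker rate, COL11A2 stood at 1.06 in endothelial-like (0.846 to 1.32), 0.851 in stellate-like (0.561 to 1.24) and 0.586 in endocrine-like nuclei (0.459 to 0.738). In lymphocyte-like and Schwann-like nuclei it stood at 1.69 (1.08 to 2.51) and 1.69 (1.19 to 2.33). Against single markers, COL11A2 at 22.6% of the acinar level per nucleus lay within their endocrine-like range (20.6% to 88.4%, median 25.1%). In lymphocyte-like nuclei it lay within their range too (42.6%, markers 19.7% to 60.5%). In Schwann-like nuclei it lay above it (52.6%, markers 23.6% to 47.2%). In WT endothelial-like nuclei, the 4 UMIs made 3.65 CPM, above the 0.364 CPM of WT acinar-like nuclei. The endothelial excess of the acinar log2 ratio was 5.76 (3.62 to 7.55).

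**Figure D4:**
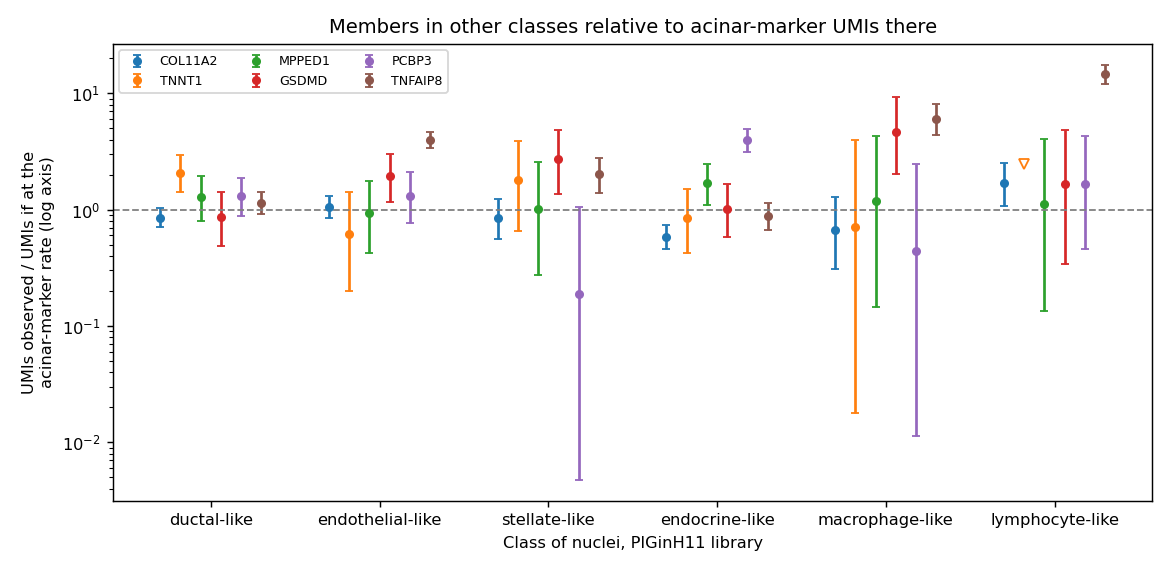
UMIs of each gene in PIGinH11 nuclei of 6 other classes, divided by the UMIs expected if the gene were present at the rate of the 11 acinar markers (vertical axis, log scale), with 95% intervals of the observed count. COL11A2 lies near 1 in ductal-like (0.853) and endothelial-like nuclei (1.06), PCBP3 lies at 3.97 in endocrine-like nuclei and TNFAIP8 at 14.6 in lymphocyte-like nuclei. A triangle marks the upper bound for a count of 0.

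PCBP3 did not differ between the libraries beyond counting error in endocrine-like nuclei. It had 80 UMIs (67.7 CPM, 19.9% of nuclei) in WT and 82 UMIs (72.8 CPM, 12.3% of nuclei) in PIGinH11, a log2 ratio of 0.11 (-0.36 to 0.57). Thinned to 500 UMIs, the shares were 3.19% and 3.08%. In endocrine-like cluster 15, which expresses the beta cell hormone gene INS, the level was 82.4 CPM in WT and 116 CPM in PIGinH11. The acinar log2 ratio exceeded the endocrine one by 5.11 (4.47 to 5.75). The PIGinH11 acinar level of 60.3 CPM thus came near a level that endocrine-like nuclei had in both libraries.

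MPPED1 also had endocrine transcripts in both libraries, with 18 UMIs (15.2 CPM) in WT and 26 UMIs (23.1 CPM) in PIGinH11. The log2 ratio was 0.60 (-0.32 to 1.55), and the acinar ratio exceeded it by 5.29 (4.12 to 6.42). The acinar-marker rate gives 15.4 UMIs beside the 26 of PIGinH11, and with that rate subtracted the endocrine log2 ratio was -0.69. Cluster 12 held 101 of 282 WT and 260 of 520 PIGinH11 endocrine-like nuclei. The part of this difference in class make-up in the pooled ratio was not tested. All 18 WT UMIs came from endocrine-like cluster 12, which expresses the hormone genes GCG and PPY and where MPPED1 stood at 46.2 CPM in WT and 39.5 CPM in PIGinH11. Cluster 15 had 0 and 2 MPPED1 UMIs. In PIGinH11 acinar-like nuclei this gene reached 45.0 CPM, again close to the endocrine cluster.

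TNFAIP8 was common outside the acinar compartment in both pigs. It stood at 120 and 136 CPM in WT and PIGinH11 endothelial-like nuclei (log2 ratio 0.18, -0.16 to 0.52), and at 57.5 and 52.4 CPM in endocrine-like nuclei (-0.13, -0.66 to 0.39). The pooled endocrine value hid opposite directions in clusters 12 and 15. Cluster 12 had 18.0 CPM in WT (7.23 to 37.0, 7 UMIs) and 57.3 CPM in PIGinH11 (38.4 to 82.3, 29 UMIs). Cluster 15 had 91.6 CPM in WT (69.9 to 118) and 44.4 CPM in PIGinH11 (26.3 to 70.2). Levels were highest in lymphocyte-like nuclei, at 656 and 907 CPM (0.47, 0.01 to 0.93). Macrophage-like nuclei had 502 and 328 CPM (-0.61, -1.20 to -0.04). In WT the order was lymphocyte-like, macrophage-like, endothelial-like, endocrine-like, mural-like, Schwann-like, stellate-like, acinar-like and ductal-like. Neighbours in this order had overlapping intervals, except macrophage-like and endothelial-like, endothelial-like and endocrine-like, stellate-like and acinar-like, and acinar-like and ductal-like nuclei. The acinar log2 ratio exceeded the endothelial one by 3.65 (3.27 to 4.02), the endocrine one by 3.96 (3.41 to 4.51) and the lymphocyte one by 3.36 (2.87 to 3.84).

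In PIGinH11 the TNFAIP8 counts were above the acinar-marker rate in lymphocyte-like nuclei (14.6, 12.1 to 17.6), macrophage-like nuclei (6.01, 4.37 to 8.07), endothelial-like nuclei (4.00, 3.42 to 4.65) and stellate-like nuclei (2.01, 1.40 to 2.80). They were not above it in endocrine-like nuclei (0.877, 0.667 to 1.13), whereas the WT endocrine-like count was (25.4, 19.8 to 32.3). With the marker rate subtracted, no PIGinH11 UMI was left in endocrine-like nuclei. The endocrine log2 ratio was then at most -4.37 in place of -0.13. This result depends on the summed rate, which was 38.6% of the acinar level per nucleus in PIGinH11 endocrine-like nuclei. Single markers there ran from 20.6% to 88.4% with a median of 25.1%, and TNFAIP8 stood at 33.8%, above the median marker. In stellate-like nuclei the levels were 33.3 CPM in WT and 76.5 CPM in PIGinH11, a log2 ratio of 1.20 (0.42 to 2.00). The marker rate there gives 1.56 UMIs beside 25 observed in WT, and 17.4 beside 35 in PIGinH11. Its part in the stellate difference was not tested. Under a limit of 1300 UMIs, 0 WT and 4 PIGinH11 UMIs were left there, which bounds the ratio only at -1.42 or above.

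GSDMD had few UMIs outside the acinar class. Macrophage-like nuclei, a cell type in which gasdermin D is well known, held 4 UMIs in WT and 8 in PIGinH11, which is 31.4 and 59.6 CPM, in 10.0% and 10.3% of nuclei. Per UMI sequenced, the WT macrophage-like level was above the WT acinar-like level of 0.926 CPM. Endothelial-like nuclei held 7 and 19 UMIs (6.39 and 15.3 CPM), stellate-like nuclei 3 and 11, and endocrine-like nuclei 1 and 16. The acinar log2 ratio exceeded the endothelial one by 4.36 (2.74 to 5.81) and the macrophage one by 4.70 (2.42 to 6.69). For the endocrine class the excess was 1.56 (-3.88 to 4.34). TNNT1 had no UMI in any WT class outside the acinar-like, ductal-like and unnamed nuclei, and at most 11 UMIs (endocrine-like) in the corresponding PIGinH11 classes.

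Few members reached 20 UMIs in the smaller classes. Of 4 members tested in endothelial-like nuclei, 1 (COL11A2) was at least 4-fold higher, against 1.27% of genes tested. In stellate-like nuclei it was 1 of 2 (COL11A2), against 0.885%. In endocrine-like nuclei it was 1 of 4 (COL11A2), against 1.35%. COL11A2 reached 20 UMIs in these classes only through PIGinH11, so nothing is read from these counts. The other members tested had log2 ratios from 0.18 to 1.33 in endothelial-like nuclei, of 1.20 in stellate-like nuclei and from -0.13 to 0.60 in endocrine-like nuclei.

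Markers of other cell types were low in acinar-like nuclei but not equal between the libraries. The 11 endothelial markers summed to 35.2 CPM in WT and 77.6 CPM in PIGinH11, with 11 of 11 higher. The 12 stellate markers summed to 61.4 and 108 CPM, with 11 of 12 higher. The 8 lymphocyte markers summed to 933 and 614 CPM, although 7 of 8 were higher in PIGinH11, and IL7R, the interleukin 7 receptor, was at least 4-fold higher. The 7 macrophage markers summed to 152 and 127 CPM, although 6 of 7 were higher. No marker of these lists was at 0 in both libraries. Their part in the member differences was not tested. Mitochondrial transcripts made 0.144% of WT and 0.0546% of PIGinH11 acinar UMIs, and digestive enzyme transcripts 8.40% and 5.90%.

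An enzyme-rich cluster that stayed unnamed (346 WT and 158 PIGinH11 nuclei) showed the same direction. COL11A2 had 0 and 60 UMIs there (430 CPM in PIGinH11, found in 25.3% of nuclei), TNNT1 1 and 12, and TNFAIP8 3 and 18.

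No relative with 20 or more acinar UMIs had a log2 ratio as high as that of a member. Of 42 listed relatives, 37 were found and 29 had 20 or more acinar UMIs. None of the 29 was 4-fold higher or lower, and their log2 ratios ran from -1.11 to 1.89 with a median of 0.27, beside 0.29 over all genes tested. Of all 19149 genes tested, 3.21% were at least 4-fold higher and 121 genes at least 4-fold lower. The count for the relatives is near these shares, so nothing is read from it. Among 10 fibrillar collagens, COL5A2 stood at 0.78, COL11A1, a partner chain of COL11A2 in type XI collagen, at 0.14, COL27A1 at -0.55 and COL5A1 at -0.64. TNNT3, the fast skeletal troponin T, stood at 0.27. MPPED2 stood at 0.51.

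In the list of gasdermins and pyroptosis genes, 10 of 17 had enough UMIs. IRF2, a transcription factor known to drive GSDMD, stood at -0.56, NINJ1, which ruptures the membrane of dying cells, at 0.39, CASP8 at -0.07 and IRF1 at -0.59. CASP1 and PYCARD, which act upstream of gasdermin D, had 3 and 2 UMIs and 1 and 3 UMIs in WT and PIGinH11, too few for a ratio. NLRP3, from the same list, had 18 and 27 UMIs and stood at 1.54 (0.63 to 2.49). CASP1, PYCARD and NLRP3 are named in addition to the 4 genes of the list with most UMIs. Among the poly(C)-binding proteins PCBP2 stood at -0.07, HNRNPK at -0.33, PCBP4 at 0.96 and PCBP1 at -0.40. Of the TNFAIP8 family, TNFAIP8L2 stood at 1.27 and TNFAIP8L3 at 0.70. GSDMA, named after its value was seen, had the highest ratio of the relatives at 1.89 (11 and 21 UMIs).

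Chromosomal neighbours with 20 or more acinar UMIs also had lower log2 ratios than the members. The 3 nearest annotated genes on each side, with the overlapping lncRNA, made 35 genes, of which 22 were in the matrices and 16 had 20 or more acinar UMIs. On the higher-coordinate side of PCBP3 only LOC100623720 was listed. The matrices did not hold it, so no neighbour was measured on that side. None was 4-fold higher or lower, and the log2 ratios ran from -1.17 to 1.47 with a median of 0.41. With 3.21% of all 19149 genes at least 4-fold higher, nothing is read from that count either. DMXL1, which lies 9.48 kb from TNFAIP8, stood at 0.23, and COL18A1, which lies 76.9 kb from PCBP3, at 1.47. EEF1D, near GSDMD, stood at 0.37 and BRD2, near COL11A2, at 0.28. Among genes named after their values were seen, RXRB, 1.13 kb from COL11A2, stood at 0.92 (0.67 to 1.16), and MROH6, 1.14 kb from GSDMD, at -1.17 (-1.95 to -0.45), opposite to its neighbour.

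**Figure D5:**
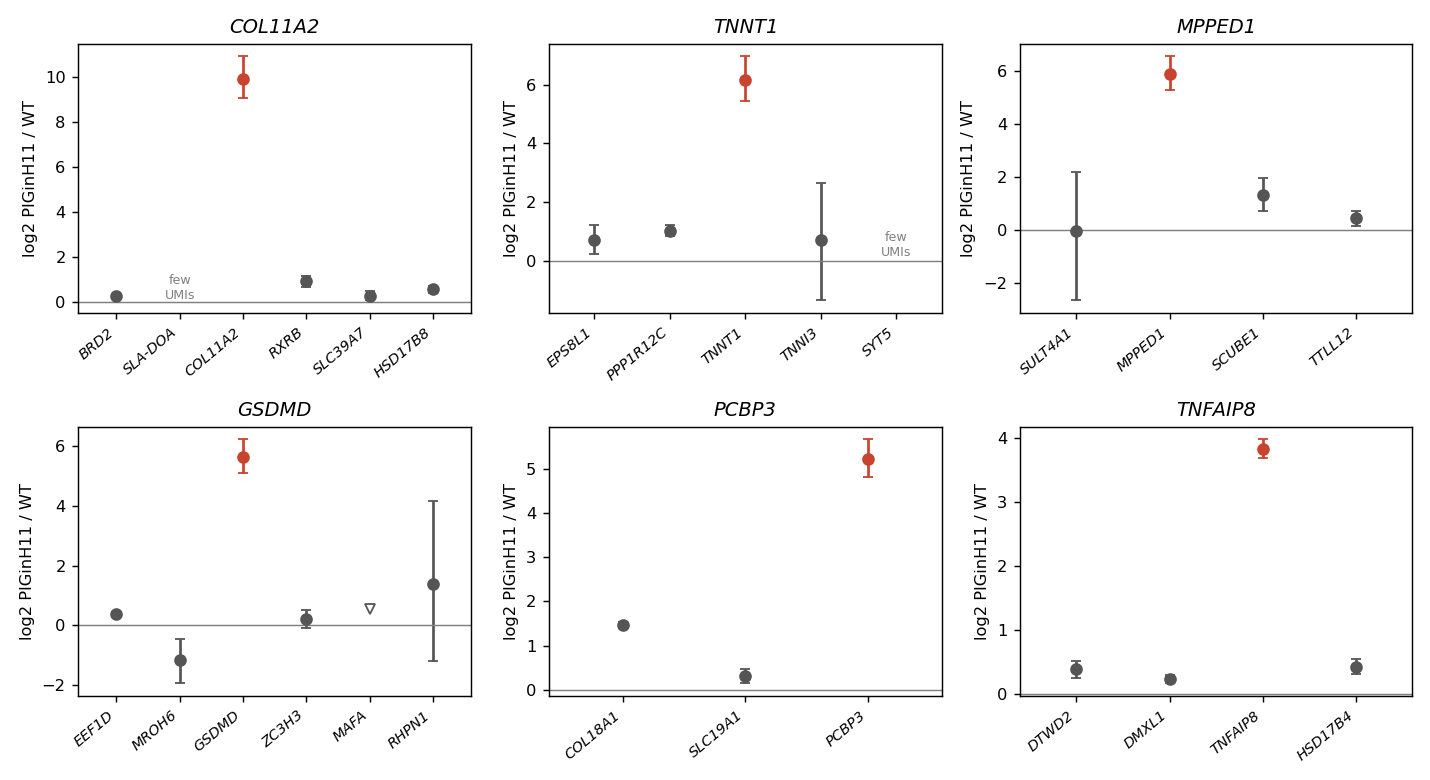
Log2 ratio of PIGinH11 over WT CPM in acinar-like nuclei for each member (red) and its annotated neighbours in the matrices (grey), in chromosomal order, with 95% intervals. Triangles are upper bounds. PCBP3 has no neighbour in the matrices on its higher-coordinate side. Each member stands above all its neighbours, as COL11A2 at 9.94 beside RXRB at 0.92 and GSDMD at 5.63 beside MROH6 at -1.17.

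Other genes had profiles like those of the members. Over 18 profiles (9 classes in each library, which share library depth and leaked RNA), COL11A2 was most like MSLNL (Pearson's r 0.918 on log2(CPM + 5)), CSTA (0.889) and CTRL (0.881). TNNT1 was most like CTRL (0.912) and PCBP3 most like NELL1 (0.904), which had 473 and 4976 acinar UMIs. MPPED1 was most like NTNG1 (0.864), GSDMD most like MCM10 (0.867) and TNFAIP8 most like TMPRSS13 (0.860). Among the members themselves, COL11A2 and MPPED1 were closest (0.846), and TNFAIP8 and TNNT1 least alike (0.0854).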

How the data were processed

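The authors sequenced nuclei of 1 pancreas piece per pig (10x Chromium 3' kit v3.1) and deposited filtered matrices of UMI counts per gene and barcode, aligned to Sscrofa11.1. The submitters' processing notes name Cell Ranger 3.1.0 and Seurat 3.1.1, whereas the matrix headers name version 5.0.0. Strand and intron settings are not stated in the sources used here. In both libraries the paper reports a larger share of reads mapped to the transcriptome than to exons, so intronic reads were counted. The exonic share it reports was lower in the transgenic library.

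Barcodes with 270 to 3700 genes, under 13000 UMIs and under 10% mitochondrial UMIs were kept. The printed limit of 1300 UMIs was an alternative. Scrublet doublets (0.8% for each 1000 barcodes) were removed. Counts were log-normalised, and 2000 variable genes were chosen in each library, without the members and the mitochondrial and ribosomal genes. The pooled genes gave 30 components, which were corrected by Harmony and clustered by Louvain at resolution 1 (scanpy 1.11.5, igraph 0.11.9). Clusters were named "-like" from at least 3 markers of a fixed list with a log2 fold of 1 or more. These names are not the annotation of the study.

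UMIs were summed per class and library and scaled to CPM. Genes needed 20 or more UMIs over both libraries to enter the counts past a limit, the medians and the ranks by log2 ratio. Single log2 ratios were given where either library held more than 3 UMIs, and a sum of 0 was set at 3 UMIs. All 95% intervals are exact: shares follow Clopper-Pearson, CPM the Poisson distribution, and ratios and their differences conditional limits. No test between groups is possible with 1 library each. The acinar-marker rate is the per-nucleus level of 11 acinar markers in a class over that in acinar-like nuclei, times the acinar UMIs of a gene per nucleus. The ratio code was tested on simulated data.

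The members, gene lists, markers and neighbours were chosen with earlier results of these data known. Named genes are the members and the 3 genes most like each member (at least 100 UMIs). Up to 4 relatives and neighbours per list are also named, those with most UMIs unless stated otherwise. RefSeq gave positions and neighbours, and gene IDs without a symbol in the matrices were named from a reference table. Alternatives changed doublet removal, filters, Harmony, resolution, clustering genes, scaling, thinning, leaked RNA and limits.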

Additional observations from a re-analysis of the deposited data

Results flagged for a closer look

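TNFAIP8 was higher in PIGinH11 than in WT acinar-like nuclei (log2 ratio 3.83) but lower in macrophage-like nuclei (-0.61, -1.20 to -0.04), where 64 UMIs came from 40 WT nuclei and 44 UMIs from 78 PIGinH11 nuclei. What drew attention was the opposite direction in 2 classes of the same libraries, and with 1 library per group the difference was not tested between animals. TNFAIP8 was found in 67.5% of WT macrophage-like nuclei (median 2680 UMIs) and 24.4% of PIGinH11 ones (median 917 UMIs), and in 22.5% and 12.8% after thinning to 500 UMIs. Over the 10 alternatives that gave a macrophage-like value, the log2 ratio ran from -1.70 to -0.45.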

How the results depend on the processing

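In acinar-like nuclei, all 6 members were at least 4-fold higher under all 15 alternatives, with log2 ratios of 9.45 to 10.80 for COL11A2, 4.21 to 6.37 for TNNT1, 5.12 to 7.67 for MPPED1, 3.87 to 5.68 for GSDMD, 4.64 to 5.24 for PCBP3 and 2.66 to 3.87 for TNFAIP8, the lowest under a limit of 1300 UMIs. The genes were chosen on the acinar contrast, so its stability is a description and no support for it. A 2-fold limit, no minimum of UMIs and subtraction of leaked RNA left the acinar UMIs unchanged and could not lower the acinar count. Of 152 alternative values of the counts and of the acinar minus ductal excesses, 124 stayed within 1.5 times the count or within the interval. Of 482 single ratios 412 did so. Of all 482, 25 had the opposite sign, 0 of them in acinar-like nuclei. In 15 of the 25 WT had 0 UMIs, so that the ratio is a lower bound and shows no reversal.

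Under a limit of 1300 UMIs, the counts of members at least 4-fold higher were 2 in ductal-like, 0 in endothelial-like, 0 in stellate-like and 0 in endocrine-like nuclei. The excess over ductal-like nuclei was then at most 7.21 for COL11A2 and 3.61 for TNNT1 (0 WT ductal UMIs), 4.01 for MPPED1 and 0.20 for TNFAIP8. All 9 negative ratios that were positive before were lower bounds with 0 WT UMIs, among them COL11A2 in stellate-like (-0.42) and Schwann-like (-2.24) nuclei and GSDMD in stellate-like (-1.42) and endocrine-like (-2.54) nuclei.

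Thinned to 500 UMIs, the counts were 2 in ductal-like and 0 in stellate-like nuclei, the excess was at most 6.64 for COL11A2 and 6.48 for MPPED1, 3.72 for PCBP3 and 0.34 for TNFAIP8, and the bound for GSDMD in endocrine-like nuclei was -0.15. With UMIs at the acinar-marker rate subtracted, the counts were 0 in ductal-like, 0 in endothelial-like, 0 in stellate-like and 0 in endocrine-like nuclei, with few members left at 20 UMIs. The excess was then at most 2.41 for TNNT1, 4.41 for MPPED1, at least 4.45 for GSDMD, 4.48 for PCBP3 and 4.41 for TNFAIP8, and TNFAIP8 in ductal-like nuclei was at -0.59. COL11A2 had no ductal-like value left.

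Without doublet removal the PCBP3 excess was 1.27. As a mean over nuclei, 3 members passed in endothelial-like nuclei. A 2-fold limit gave 3 in endothelial-like and 2 in stellate-like nuclei, and no minimum of UMIs gave 2 in stellate-like and 2 in endocrine-like nuclei. The share of all genes past the limit is not given for any alternative, so nothing is read from the counts of members under them. Adding the unnamed enzyme-rich nuclei to the acinar-like class was chosen after seeing the data. Causes were not tested where the construction does not give them. WT sums under 20 UMIs limit the ratios outside acinar-like nuclei. No paired analysis was possible because each group has 1 library.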
